A study of Homo sapiens with 4 samples.

Results

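The 10 genes described here are GAS5, SNHG1, SNHG5, SNHG6, SNHG7, SNHG8, SNHG12, SNHG15, SNHG16 and SNHG17, non-coding host genes of small nucleolar RNAs (snoRNAs). They were chosen by name, and each of the 10 names matched 1 of the 39306 gene names in the deposited tables. RNA-seq was done on MHCC97H, a human liver cancer line in established use, in 4 libraries. In 2 libraries the cells carried a short hairpin RNA against HNRNPM (HNRNPM-knockdown), which encodes an RNA-binding splicing regulator, and 2 libraries came from HNRNPM-wild type cells. No control hairpin is named, and the labels give neither the hairpin of each knockdown library nor whether the replicates were separate cultures. Effects of hairpin delivery and of losing HNRNPM cannot be told apart. The p-values weigh the difference between the groups only against how far libraries differ within a group, and that spread may be technical. Fewer cells expressing a gene and less of its RNA per cell cannot be told apart in bulk RNA.

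SnoRNAs guide chemical modification of ribosomal and spliceosomal RNA, as box C/D RNAs (SNORD, 2′-O-methylation) or box H/ACA RNAs (SNORA, pseudouridylation). In mammals most are cut out of the introns of a host transcript. Many hosts begin with a terminal oligopyrimidine (TOP) tract, a C followed by a run of C and T that also marks ribosomal protein mRNAs and ties their translation to growth signals. Spliced non-coding hosts such as GAS5 have short open reading frames and are known targets of nonsense-mediated decay, so their steady level reflects both transcription and decay.

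Sequences at the annotated starts are shown because a TOP tract, where a gene has one, would lie there. GAS5, SNHG1 and SNHG17, which passed the test below, are given with SNHG12 and SNHG5, which did not. Of the 10 genes, 8 were matched in the RefSeq promoter table (GRCh38.p14). The sequences run 5′ to 3′ from 15 bases before to 25 bases from the RefSeq start, with the longest pyrimidine run near the start in capitals. GAS5 is shown as the first 25 bases shared by 6 GENCODE 29 isoforms (GRCh38), because its RefSeq start lies 163 bases outside the locus counted in the files. The windows are chr1:173867965-173867989 for GAS5, chr11:62855861-62855900 for SNHG1 and chr20:38435304-38435343 for SNHG17, all on the minus strand. Those for comparison are chr1:28581849-28581888 for SNHG12 and chr6:85678709-85678748 for SNHG5, also on the minus strand.
GAS5: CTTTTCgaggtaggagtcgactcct
SNHG1: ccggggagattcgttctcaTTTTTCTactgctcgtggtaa
SNHG17: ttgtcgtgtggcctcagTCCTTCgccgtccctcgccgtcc
SNHG12: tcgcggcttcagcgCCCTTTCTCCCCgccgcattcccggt
SNHG5: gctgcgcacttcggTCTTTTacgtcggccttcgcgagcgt

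GAS5 opened with 6 pyrimidines led by C at the GENCODE start shown. At its RefSeq start its longest run was 3 bases. The marked runs of SNHG1 and SNHG17 begin with T downstream of the RefSeq start and hold none of the motifs searched. At that start neither run is a TOP tract as defined above. Whether transcripts start within these runs, at a C followed by further pyrimidines, was not tested. The most shared GENCODE start of SNHG1 (position 62855488, 9 of 25 isoforms) lies outside the window shown and was not examined. SNHG12 had the longest run of those matched, 12 bases starting 1 base before its annotated start. A run of at least 5 pyrimidines touching the window from 5 bases before to 10 bases after the start was present in 7 of the 8 matched genes, against 40.9% of 35116 promoters in the table. The exception was GAS5 at its RefSeq start. Among the 7, the 11-base run of SNHG7 began 14 bases before the RefSeq start and ended ahead of it. A run that touches the window is thus not always a TOP tract at that start. The 30 bases around the start (10 before to 20 after) were searched for the motif CTTTC, for the motif CTTTT and for the motif CTCTT. At least 1 of them lay on the transcribed strand in 4 of the 8 genes (SNHG5, SNHG8, SNHG12 and SNHG16), against 10.7% of all promoters. None of the 8 had a match on the other strand, against 7.97% of all promoters. The host genes were listed as hosts with TOP promoters, so shares above those of all promoters follow from that choice and are no finding here. These matches describe letters in a window, and show neither use of a start site nor binding.

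The libraries held 12708165 and 11498663 reads assigned to genes in knockdown replicates 1 and 2, and 18317579 and 19659106 in wild-type replicates 1 and 2. HNRNPM itself was measured at 21.2 and 20.1 RPKM (reads scaled to exon length and to the assigned reads of the library) in the knockdown libraries, against 52.2 and 53.1 RPKM in the wild-type libraries. The targeted gene was thus lower in both libraries labelled as knockdown (log2 fold change -1.35, limma adjusted p = 0.0027). Hepatocyte-lineage markers were present, with ALB (albumin) at 1.72 ± 0.0338 RPKM in knockdown and 5.95 ± 0.726 RPKM in wild-type cells (SD, n = 2 each). KRT18 (keratin 18) was at 434 ± 10.5 RPKM in knockdown and 316 ± 42.3 RPKM in wild-type cells (SD, n = 2 each). The 11 matched markers of this lineage summed to 1068 to 1125 RPKM in knockdown and 837 to 922 RPKM in wild-type libraries, and none was at 0 in all libraries. Of 8 matched markers of blood, stromal and endothelial cells, 4 had enough reads to be tested, and their summed level was 65.6 to 66.0 RPKM in knockdown and 56.1 to 69.0 RPKM in wild-type libraries, most of it CD68. Among the 4, PECAM1 (endothelial and blood cells) fell to 5.77 RPKM on average in knockdown cells, against 8.98 RPKM in wild-type cells (log2 fold change -0.63, limma adjusted p = 0.00842). COL1A1 (a fibroblast collagen) rose, with 16 and 15 reads in the knockdown libraries against 5 and 5 reads in the wild-type libraries (log2 fold change 0.84, limma adjusted p = 0.0378). The part of these marker differences in the results below was not tested. RPKM values here were divided by TMM factors, a scaling of libraries that trims extreme genes. Log2 fold changes compare knockdown with wild type by limma on log2(RPKM + 0.1), adjusted over all 20221 genes tested, with an adjusted p under 0.05 as the call. All 10 host genes passed the filter on low values.

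Of the 10 host genes, 2 rose (SNHG6 and GAS5), 2 fell (SNHG17 and SNHG1) and 6 did not pass the test. Across all genes tested 24.9% were called, 11.1% as higher and 13.8% as lower. The 4 calls are 40% of the host genes, and with 10 genes this count does not set the family apart from the rest. The median log2 fold change of the 10 genes was -0.04, beside -0.03 for all genes tested. In 6 of the 10 genes the knockdown and wild-type libraries did not overlap, against 67.6% of all genes tested.

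**Figure D1:**
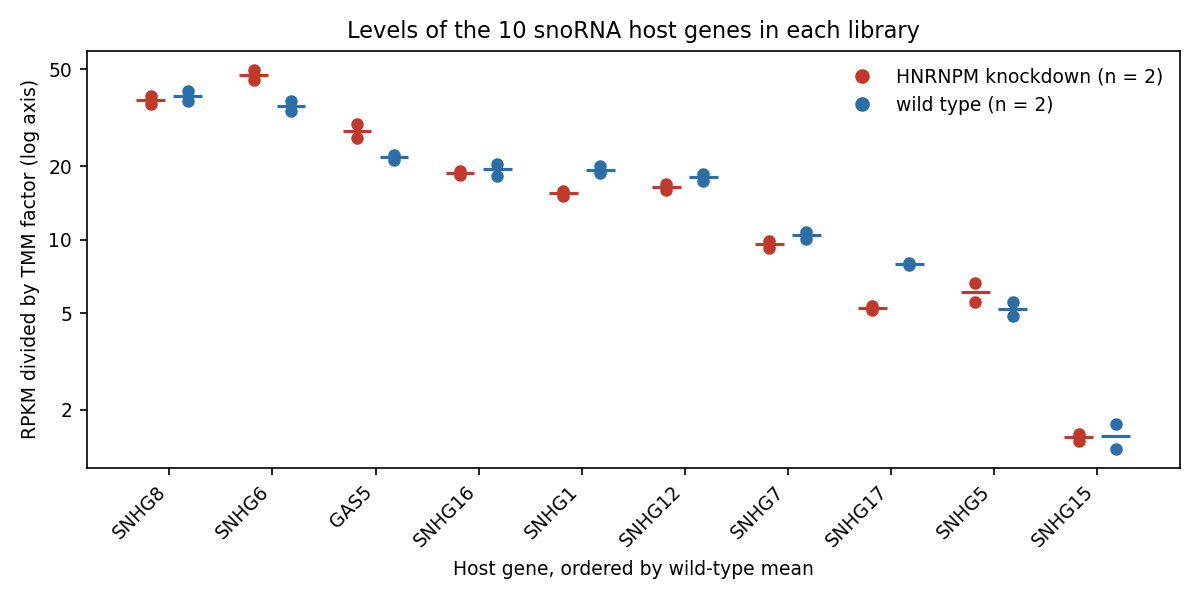
Level of each host gene in each library (points; RPKM divided by the TMM factor, log axis), with knockdown in red to the left of wild type in blue and short lines for the mean of the 2 libraries of each group. SNHG6 and GAS5 lie higher in both knockdown libraries, SNHG1 and SNHG17 lie lower, and SNHG15 is the least abundant gene in both groups.

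SNHG6, host of SNORD87, had the largest increase of the 10. It was measured at 49.9 and 45.4 RPKM in knockdown replicates 1 and 2, against 37.0 and 33.7 RPKM in wild-type replicates 1 and 2. Both knockdown libraries lay above both wild-type libraries. In log2 the difference was 0.43 ± 0.08 (SE; limma adjusted p = 0.0207), a fold of 1.35 with a 95% interval of 1.17 to 1.56. The gene lies on chromosome 8 (positions 66921684 to 66926398, minus strand, GRCh38 coordinates of the files, here and below). Of its 1247 exon bases, 365 lie opposite exons of MCMDC2, and whether reads were counted by strand is not stated in the labels or headers. MCMDC2 had 252 and 234 reads in the knockdown and 289 and 262 reads in the wild-type libraries, fewer than the 662 to 832 reads of SNHG6. Scaled to depth, MCMDC2 was at 3.04 and 3.15 RPKM in the knockdown libraries, against 2.52 and 2.16 RPKM in the wild-type libraries. That difference had the direction of SNHG6 but did not pass (log2 fold change 0.39, limma adjusted p = 0.0821). The part of MCMDC2 reads in the SNHG6 value was not tested. The SNHG6 call was lost without knockdown replicate 1 (limma adjusted p = 0.131), without knockdown replicate 2 (0.0786), without wild-type replicate 2 (0.0628) and with no filter on low values (0.0631), while the estimate stayed between 0.36 and 0.50 over all alternatives.

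GAS5, the growth arrest-specific transcript that gave non-coding decay targets one of their best known examples, was measured at 29.8 and 26.2 RPKM in knockdown replicates 1 and 2, against 22.3 and 21.3 RPKM in wild-type replicates 1 and 2. The groups did not overlap, and the 2 knockdown libraries differed from each other by more than the 2 wild-type libraries did. The means were 28.0 ± 2.55 RPKM in knockdown and 21.8 ± 0.714 RPKM in wild-type cells (SD, n = 2 each). On the log2 scale this was 0.36 ± 0.09 higher (SE; limma adjusted p = 0.0356), a fold of 1.28 with a 95% interval of 1.11 to 1.49. GAS5 lies on chromosome 1 (positions 173863900 to 173868882, minus strand) and shares 42 exon bases with GAS5-AS1 on the other strand. The call is close to the threshold. It was lost without any 1 of the 4 libraries (limma adjusted p = 0.188 without knockdown replicate 1, 0.0808 without knockdown replicate 2, 0.0732 without wild-type replicate 1 and 0.11 without wild-type replicate 2) and with no filter (0.0881).

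SNHG17, which holds several SNORA71 copies, had the largest decrease. It was measured at 5.32 and 5.13 RPKM in knockdown replicates 1 and 2, against 7.91 and 8.04 RPKM in wild-type replicates 1 and 2. The libraries of each group lay close together and the groups did not overlap. Its log2 fold change of -0.60 ± 0.09 passed the test (SE; limma adjusted p = 0.00892), a fold of 0.659 with a 95% interval of 0.569 to 0.764. It lies on chromosome 20 (positions 38420588 to 38435353, minus strand). Over 14 alternatives the estimate ran from -0.61 to -0.53. The call was lost in 1 of them, without knockdown replicate 1 (limma adjusted p = 0.0507).

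SNHG1, host of box C/D snoRNAs of the SNORD22 and SNORD25 to SNORD31 group, was measured at 15.9 and 15.1 RPKM in knockdown replicates 1 and 2, against 18.7 and 20.04 RPKM in wild-type replicates 1 and 2. Both knockdown libraries lay below both wild-type libraries. This gave -0.32 ± 0.08 in log2 (SE; limma adjusted p = 0.0338), a fold of 0.802 with a 95% interval of 0.704 to 0.913. It lies on chromosome 11 (positions 62851988 to 62855914, minus strand). The call was lost when values were scaled to total reads alone (limma adjusted p = 0.0602), with no filter (0.0657), without knockdown replicate 1 (0.136), without knockdown replicate 2 (0.154) and without wild-type replicate 2 (0.0952).

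Ratios between host genes within a library do not depend on how libraries are scaled. SNHG6 over SNHG17 was 9.38 and 8.85 in the knockdown libraries and 4.68 and 4.19 in the wild-type libraries, per kilobase of exon. GAS5 over SNHG1 was 1.88 and 1.73 in the knockdown libraries and 1.19 and 1.06 in the wild-type libraries. Each ratio was higher in both knockdown libraries than in either wild-type library. That order was fixed by the choice of pairs, a gene called higher over a gene called lower, each without overlap between the groups. An exact two-sided permutation test of 2 libraries against 2 cannot go below p = 0.333, so these ratios stand as a description. Together the 10 genes took 528 and 489 CPM (counts scaled to assigned reads) in the knockdown libraries and 491 and 479 in the wild-type libraries. Knockdown replicate 2 lay within the wild-type range, so the family's total share of reads was not separated between the groups.

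The 6 other host genes had differences that did not pass the test. SNHG5, host of SNORD50A and SNORD50B, was at 6.63 and 5.54 RPKM in the knockdown libraries, against 4.86 and 5.55 RPKM in the wild-type libraries (log2 fold change 0.22, limma adjusted p = 0.257). Knockdown replicate 2 and wild-type replicate 2 were at nearly the same level. SNHG8, host of SNORA24, was at 39.1 and 36.2 RPKM in the knockdown libraries, against 37.0 and 40.7 RPKM in the wild-type libraries, with overlapping groups and a 95% interval of the fold from 0.843 to 1.12. SNHG16, host of SNORD1A, SNORD1B and SNORD1C, was at 19.2 and 18.4 RPKM in the knockdown libraries, against 20.6 and 18.4 RPKM in the wild-type libraries. Its groups overlapped and the interval of its fold ran from 0.838 to 1.12.

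SNHG12, host of SNORD99, SNORA61, SNORA44 and SNORA16A, was at 17.0 and 16.0 RPKM in the knockdown libraries, against 17.5 and 18.6 RPKM in the wild-type libraries. Its groups did not overlap, but the log2 fold change of -0.13 ± 0.08 (SE) did not pass (limma adjusted p = 0.264). SNHG7, host of SNORA17A and SNORA17B, was at 9.25 and 9.92 RPKM in the knockdown libraries, against 10.7 and 10.1 RPKM in the wild-type libraries (log2 fold change -0.12, limma adjusted p = 0.338). SNHG7 shares 1094 of its 4345 exon bases with FAM69B on the other strand, whose 87 to 111 reads per library compare with 504 to 842 for SNHG7. SNHG15, host of SNORA9, was the least abundant, at 1.49 and 1.60 RPKM in the knockdown libraries, against 1.38 and 1.75 RPKM in the wild-type libraries. It rested on 68 to 122 reads per library, and its interval, a fold of 0.74 to 1.33, leaves changes of that size undetected.

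**Figure D2:**
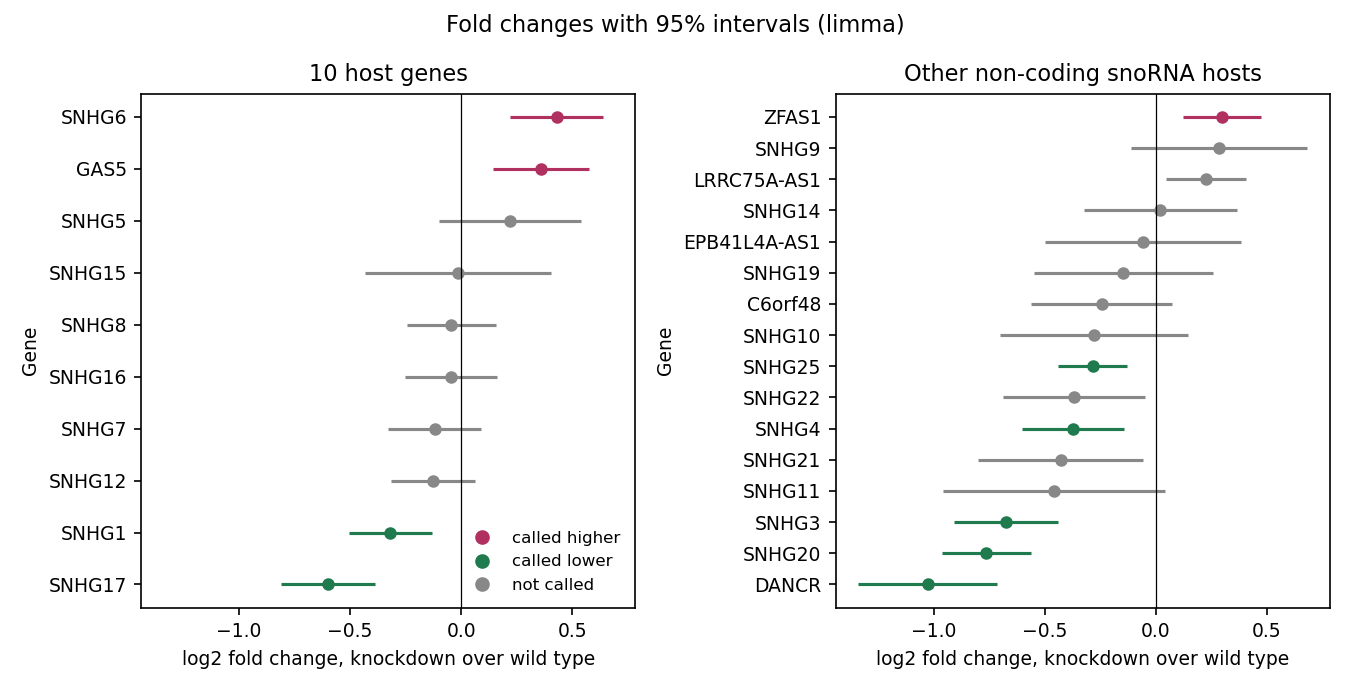
Log2 fold change of knockdown over wild type (points) with the 95% interval of limma (lines) for the 10 host genes on the left and 16 other non-coding snoRNA hosts on the right, coloured by call. SNHG6 and GAS5 lie above 0, SNHG1 and SNHG17 below, while 5 of the other hosts were called lower and 1 higher.

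The order of levels differed in places between the groups. In knockdown cells the order from high to low was SNHG6, SNHG8, GAS5, SNHG16, SNHG12, SNHG1, SNHG7, SNHG5, SNHG17 and SNHG15, and no neighbouring pair overlapped between its 2 libraries. In wild-type cells it was SNHG8, SNHG6, GAS5, SNHG16, SNHG1, SNHG12, SNHG7, SNHG17, SNHG5 and SNHG15. There SNHG8 and SNHG6 overlapped (37.0 RPKM was the lowest library of SNHG8 and the highest of SNHG6), as did SNHG16 and SNHG1. SNHG6 thus stood at or near the top of the family in both groups, above 95.5% of all genes tested by its mean in knockdown cells and above 93.7% in wild-type cells. SNHG17 moved to 61.3% of genes tested in knockdown cells, against 71.2% in wild-type cells.

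The gene-level values do not measure spliced host RNA alone. GENCODE 29 lists 19 of 29 GAS5 isoforms, 13 of 25 SNHG1 isoforms and 10 of 17 SNHG12 isoforms as retained introns. SNHG8 and SNHG15 have 0 such isoforms of 5 and 10. The exons counted by the authors cover most of several loci, 95.7% of the span of SNHG1, 92.6% of SNHG15, 82.8% of SNHG8, 76.0% of SNHG12 and 72.9% of GAS5. The median was 71.8% for the 10 genes and 31.7% for 39178 genes of 1 chromosome each. SNHG5, SNHG6 and SNHG17 had 15.7%, 26.4% and 28.3% of their span in exons. Spliced, intron-retaining and snoRNA reads are not separated within such a value.

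SnoRNA names with loci inside a single host numbered 17, in 7 of the 10 host genes. Of these 11 lie wholly within host exons and 6 in host introns. Reads were assigned to the 11 although each of their bases is also a host exon base, so host and snoRNA values can hold the same reads. The reads of these snoRNAs equalled 52.3% to 56.7% of the SNHG12 reads, 40.5% to 44.2% of the SNHG1 reads, 34.1% to 49.6% of the SNHG7 reads and 25% to 30.3% of the SNHG6 reads, over the 4 libraries. For SNHG16 the share was 28.7% and 28.3% in the knockdown libraries and 17.0% and 24.1% in the wild-type libraries, higher in both knockdown libraries. When these reads were subtracted, an alternative chosen after seeing the data, SNHG6 (log2 fold change 0.37, limma adjusted p = 0.0273) and SNHG1 (-0.28, 0.0436) kept their direction and their call. SNHG1 exons also share bases with SNORD27, SNORD28 and SNORD30, names with loci elsewhere, whose reads were not subtracted. SNORD30 fell (log2 fold change -0.82, limma adjusted p = 0.0217), while SNORD28 (-0.23) and SNORD27 (-0.09) did not pass. Their part in the SNHG1 value was not tested. For SNHG17 and GAS5 no snoRNA with loci inside a single host is listed in the exons. Nothing was subtracted for them, and their calls were not put to this check. SNHG17 shares 128 exon bases with SNORA71, a name that also has loci elsewhere. Any snoRNA reads within GAS5 exons would remain in its value. After the subtraction SNHG7 stood at 0.13 in place of -0.12, passing neither way.

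The snoRNAs did not all follow their hosts. Of the 17 names, 14 had enough reads to be tested, of which 2 were called higher and 3 lower, beside the 11.1% and 13.8% of all genes. SNORD87 (chromosome 8, positions 66922467 to 66922555), within SNHG6, rose with its host. It was at 212 and 171 RPKM in the knockdown libraries, against 130 and 123 RPKM in the wild-type libraries (log2 fold change 0.59 ± 0.12 SE, limma adjusted p = 0.0210). The ratio of SNORD87 to SNHG6 was 4.24 and 3.77 in the knockdown libraries and 3.50 and 3.66 in the wild-type libraries. SNORD22, whose value combines 2 separate stretches of SNHG1 exons (251 bases), fell as SNHG1 did. It was at 57.6 and 51.8 RPKM in the knockdown libraries, against 70.3 and 80.1 RPKM in the wild-type libraries (log2 fold change -0.46, limma adjusted p = 0.0245). SNORD26 and SNORD25, also within SNHG1, had log2 fold changes of -0.20 and -0.45 that did not pass (limma adjusted p = 0.259 and 0.0553).

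SNORA71D, in an intron of SNHG17 (chromosome 20, positions 38433865 to 38433998, minus strand), rose where its host fell. It was at 461 and 372 RPKM in the knockdown libraries, against 286 and 261 RPKM in the wild-type libraries, from 582 to 807 reads per library. Both knockdown libraries lay above both wild-type libraries (log2 fold change 0.60 ± 0.13 SE, limma adjusted p = 0.0259). Its 95% interval, 0.28 to 0.92, does not overlap that of SNHG17, -0.81 to -0.39. The ratio of SNORA71D to SNHG17 was 86.6 and 72.4 in the knockdown libraries and 36.2 and 32.4 in the wild-type libraries. Its copies in other introns of the same host differed from it. SNORA71C (positions 38429670 to 38429803) fell, at 15.4 and 17.2 RPKM in the knockdown libraries against 30.6 and 21.5 RPKM in the wild-type libraries (log2 fold change -0.65, limma adjusted p = 0.0453). SNORA71A (positions 38427309 to 38427442) was at 28.6 and 18.5 RPKM in the knockdown libraries, against 38.1 and 37.1 RPKM in the wild-type libraries, and did not pass (log2 fold change -0.71, limma adjusted p = 0.0518). SNORA71A passed in 4 of 13 alternatives, among them limma-voom (limma adjusted p = 0.0228) and the replicate block (0.0287), and ran from -0.999 without knockdown replicate 1 (0.0231) to -0.42 without knockdown replicate 2 (0.0843). SNORA71B was at 16.9 and 13.5 RPKM in the knockdown libraries and 13.0 and 13.5 RPKM in the wild-type libraries, and did not pass (limma adjusted p = 0.288).

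These copies are alike in sequence, and reads that match several copies can be placed on any of them. The GENCODE 29 sequences of the 3 copies of equal length are shown because their values part within 1 host, with capitals in SNORA71C and SNORA71A marking bases that differ from SNORA71D in a global alignment.
SNORA71D: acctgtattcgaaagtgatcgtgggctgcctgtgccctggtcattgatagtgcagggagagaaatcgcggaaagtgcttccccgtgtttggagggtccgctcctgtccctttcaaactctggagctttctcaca
SNORA71C: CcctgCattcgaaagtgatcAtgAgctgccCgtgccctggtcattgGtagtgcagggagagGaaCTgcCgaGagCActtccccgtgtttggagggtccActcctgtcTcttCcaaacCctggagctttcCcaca
SNORA71A: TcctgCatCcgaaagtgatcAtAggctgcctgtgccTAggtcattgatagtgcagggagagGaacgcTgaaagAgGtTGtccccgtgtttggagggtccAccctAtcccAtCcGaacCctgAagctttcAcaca

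SNORA71C matched SNORA71D at 116 of 134 positions (86.6%), and SNORA71A at 113 of 136 aligned columns (83.1%). How the counting treated reads with several matches is not stated in the labels or headers, so the single values of SNORA71A, SNORA71C and SNORA71D are uncertain. The SNORA71D call was lost without any 1 of the 4 libraries (limma adjusted p = 0.151 without knockdown replicate 1, 0.0579 without knockdown replicate 2, 0.0523 without wild-type replicate 1 and 0.0868 without wild-type replicate 2), with estimates of 0.46 to 0.73. The SNORA71C call was lost under 7 of 12 alternatives, among them the total-read scaling (limma adjusted p = 0.0624), limma-voom on recovered reads (0.0676), the fit without knockdown replicate 1 (0.183), that without knockdown replicate 2 (0.0972) and that without wild-type replicate 1 (0.0666). SNORD87 lost its call without knockdown replicate 1 (0.106), wild-type replicate 1 (0.0572) or wild-type replicate 2 (0.0762), and SNORD22 without knockdown replicate 1 (0.0737), knockdown replicate 2 (0.115) or wild-type replicate 2 (0.0687).

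**Figure D3:**
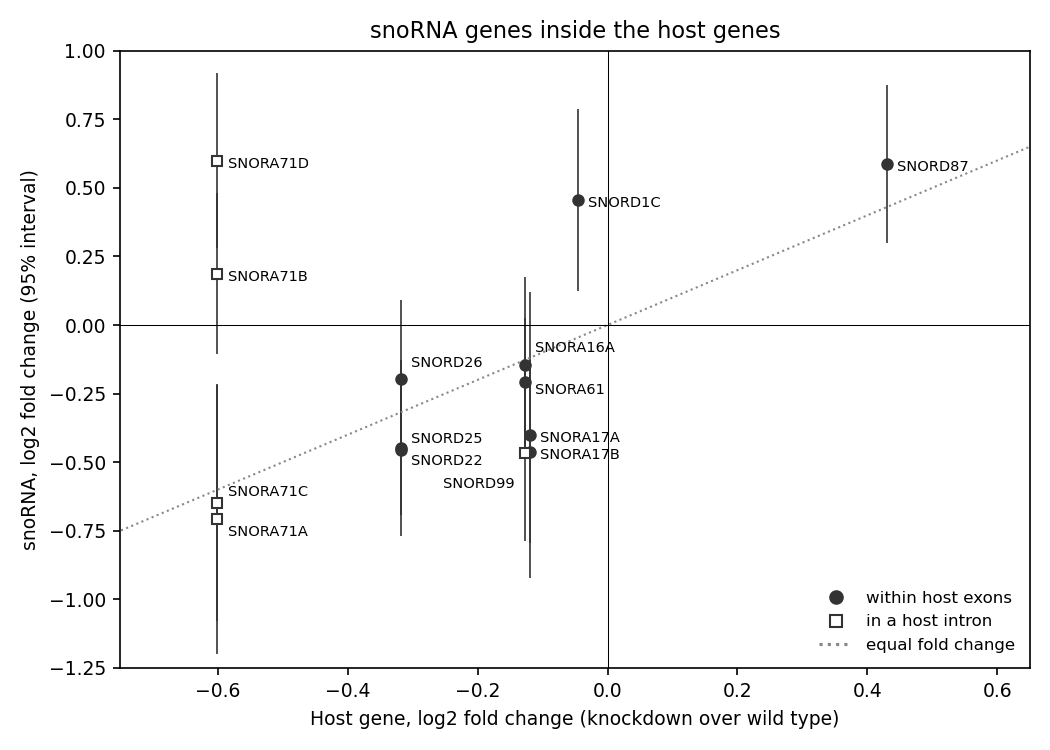
Log2 fold change of each tested snoRNA (vertical axis, points with the 95% interval of limma) against that of its host gene (horizontal axis), knockdown over wild type; filled circles lie within host exons, open squares in host introns, and the dotted line marks equal changes. SNORA71D stands at 0.60 over a host at -0.60, and SNORD1C at 0.46 over a host at -0.05.

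SNORD1C, within SNHG16, was at 380 and 351 RPKM in the knockdown libraries, against 236 and 300 RPKM in the wild-type libraries, while SNHG16 itself overlapped between the groups. Its log2 fold change of 0.46 ± 0.13 (SE) did not pass (limma adjusted p = 0.0577), but passed in 5 of 13 alternatives, among them without wild-type replicate 2 (0.63, limma adjusted p = 0.0239). It was 0.28 without wild-type replicate 1 (limma adjusted p = 0.0847), 0.42 without knockdown replicate 1 (0.22) and 0.49 without knockdown replicate 2 (0.161). SNORD99, in an intron of SNHG12, fell, with 81.7 and 63.6 RPKM in the knockdown libraries against 103 and 96.9 RPKM in the wild-type libraries (log2 fold change -0.47, limma adjusted p = 0.0487). That call was lost in 8 of 13 alternatives, among them limma-voom (0.0523), and without knockdown replicate 2 (0.190), wild-type replicate 1 (0.153) or wild-type replicate 2 (0.115). SNORA61 and SNORA16A within the same host had log2 fold changes of -0.21 and -0.14 that did not pass (limma adjusted p = 0.156 and 0.444), as did SNORA17B and SNORA17A within SNHG7 (-0.46 and -0.40; limma adjusted p = 0.0573 and 0.210). SNORA17B passed in 4 of 13 alternatives, among them limma-voom (0.0129) and the fit without wild-type replicate 2 (-0.64, limma adjusted p = 0.0273), and was -0.28 without wild-type replicate 1 (0.107). SNORD25 passed in 2 of 12 alternatives, and SNORA17A and SNORA61 in 1 each, without wild-type replicate 1 (0.0187 and 0.0488). SNORD50B, SNORD1A and SNORD1B had at most 9 reads in any library and were not tested. A further 8 snoRNA names, among them SNORA24 (SNHG8) and SNORA9 (SNHG15), combine a locus in a host with loci elsewhere and cannot be assigned to it. Library fragments of 200-500 bases were selected per the labels' protocols, longer than most mature snoRNAs, so these values may hold precursor and host RNA.

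Of 19 matched genes among other non-coding snoRNA hosts, 16 were tested, with 5 called lower, 1 higher and 10 not called. Of all genes tested 13.8% were called lower and 11.1% higher. The median log2 fold change of these hosts was -0.28 (-0.03 for all genes). DANCR, a differentiation-linked host, was at 2.31 and 2.36 RPKM in the knockdown libraries, against 5.27 and 4.49 RPKM in the wild-type libraries (log2 fold change -1.03, limma adjusted p = 0.00654). SNHG20 (-0.76), SNHG3 (-0.67), SNHG4 (-0.37) and SNHG25 (-0.28) fell too, with limma adjusted p of 0.00534 to 0.0391. ZFAS1, a host of SNORD12 copies and like GAS5 a known decay target, rose, at 18.5 and 19.1 RPKM in the knockdown libraries against 15.6 and 14.9 RPKM in the wild-type libraries (log2 fold change 0.30, limma adjusted p = 0.0332). The number called was 3 without knockdown replicate 1, without knockdown replicate 2 or without wild-type replicate 2.

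Among protein-coding genes with TOP tracts or snoRNAs, calls were mostly higher, beside 11.1% higher and 13.8% lower of all genes tested. Of 79 cytosolic ribosomal protein genes 56 were called higher and 0 lower by limma, with a median log2 fold change of 0.43. At an unadjusted p under 0.05, 66 were higher and 0 lower, and limma-voom called 67 higher and 0 lower. RPL41 (0.82), RPS15 (0.62), RPL36A (0.64) and RPL26 (0.62) had the smallest adjusted p, at 0.00434 to 0.00657. A list of 32 other TOP mRNAs, largely translation factors, shares 2 genes with the ribosomal list and 5 with the coding snoRNA hosts below. Of these 32, 14 were called higher, 18 were not called and 0 were lower by limma. With an unadjusted p under 0.05, 16 were higher and 1 lower, and limma-voom called 18 higher and 1 lower. TPT1, a translationally controlled host of SNORA31, was at 40.5 and 38.4 RPKM in the knockdown libraries, against 21.6 and 19.8 RPKM in the wild-type libraries. NACA (0.43) and NPM1 (0.41) rose as well. Of 45 protein-coding snoRNA hosts 20 were called higher, 4 lower and 21 not called, with TPT1, RPS12, RPL27A and RPL23A as higher. This list shares 25 genes with the ribosomal list, 55.6% of its own and 31.6% of the other. Calls depended on single libraries. Without knockdown replicate 1, knockdown replicate 2 and wild-type replicate 2, 3, 7 and 39 ribosomal protein genes, 1, 1 and 7 other TOP mRNAs, and 1, 4 and 18 coding hosts were called.

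**Figure D4:**
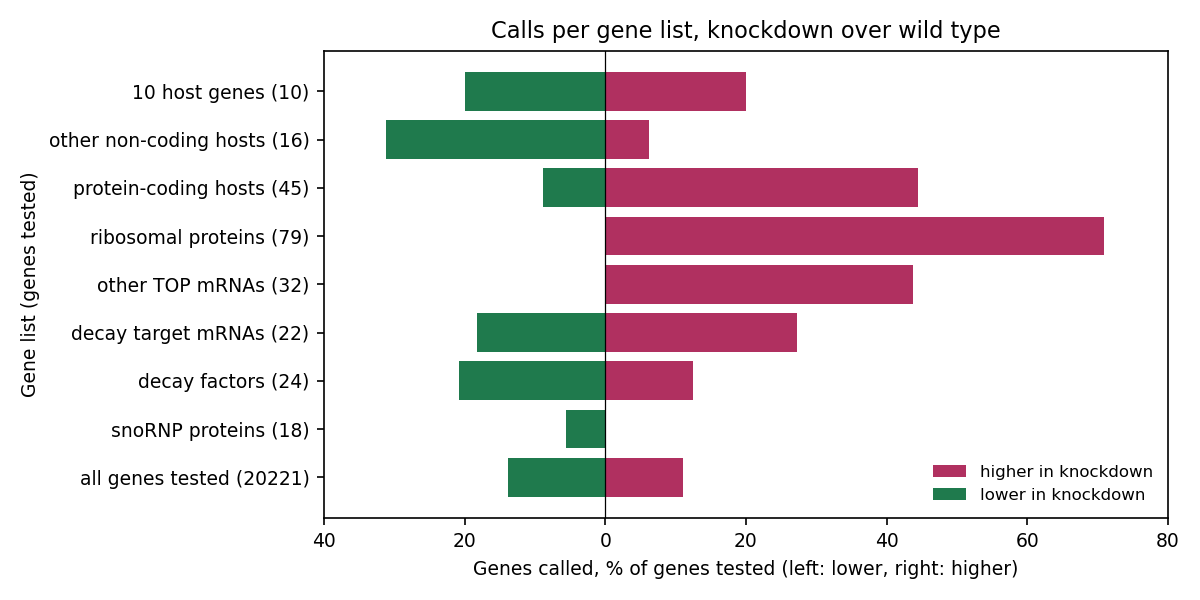
Share of tested genes called lower (green, left of 0) and higher (red, right of 0) in knockdown over wild type, for the 10 host genes, 7 other gene lists and all 20221 genes tested, with the number tested in brackets. The 10 host genes had 2 calls in each direction, 5 of 16 other non-coding hosts were called lower and 1 higher, and 56 of 79 ribosomal protein genes were called higher.

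Of 24 factors of the decay pathway that acts on spliced hosts, 16 did not pass, 3 were called higher and 5 lower. These 33.3% called stand beside 24.9% of all genes tested, and the count does not set the list apart. UPF1, the central helicase of nonsense-mediated decay, fell to 8.33 and 8.89 RPKM in the knockdown libraries, against 13.4 and 13.7 RPKM in the wild-type libraries (log2 fold change -0.65 ± 0.08 SE, limma adjusted p = 0.00644). SMG9, a regulator of the SMG1 kinase that phosphorylates UPF1, fell as well (log2 fold change -0.48, limma adjusted p = 0.0180). RBM8A and MAGOH, core subunits of the exon junction complex, rose (0.39 and 0.45, limma adjusted p = 0.0154 and 0.0184). Calls in this list numbered 1 without either knockdown library and 3 without either wild-type library. Of 22 mRNAs known to be decay targets or to have decay-targeted isoforms, 6 were called higher and 4 lower, with a median log2 fold change of -0.07. All genes tested had 11.1% called higher and 13.8% lower, with a median of -0.03. GADD45B (0.72) and RPL12 (0.93) rose, and SLC7A11 (-1.76) and SRSF2 (-0.47) fell. The decay-target list shares 3 genes with the ribosomal list. This list gave 3 calls without either knockdown library and 5 without wild-type replicate 2.

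Protein components and assembly factors of snoRNPs, the particles that snoRNAs form, had 1 of 18 genes called lower and 0 higher by limma. These 5.56% called stand beside 24.9% of all genes tested. At an unadjusted p under 0.05, and also by limma-voom, 3 were higher and 5 lower. RUVBL1, an ATPase of snoRNP assembly, fell to 17.3 ± 0.0859 RPKM in knockdown cells, against 21.0 ± 0.533 RPKM in wild-type cells (SD, n = 2 each; limma adjusted p = 0.0374), a call that was lost without knockdown replicate 1, knockdown replicate 2 or wild-type replicate 1, where the list had 0 calls. FBL (fibrillarin, the methyltransferase of box C/D particles) was at 113 ± 4.80 RPKM in knockdown and 95.4 ± 4.66 RPKM in wild-type cells and did not pass (limma adjusted p = 0.0622). XPO1 and ZNHIT6 did not pass either (0.0532 and 0.0554).

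Over the 4 libraries, the genes whose centred log2 values lay nearest to those of GAS5 were RRP15, RSRC1, RP1-92O14.6, Y_RNA and DEK, at Euclidean distances of 0.0132 to 0.0295 among 12856 genes with a mean of at least 5 CPM. Of these DEK was called higher (log2 fold change 0.39) and the others were not called. The name Y_RNA merges many loci. With 4 values per gene such likeness is common, and 150 genes lay within 0.1. Among the other 9 host genes SNHG6 was nearest to GAS5, at 0.0912 (rank 115), and SNHG17 farthest, at 0.968 (rank 11633).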

How the data were processed

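RNA-seq of ribosomal RNA-depleted total RNA was measured in 2 HNRNPM-knockdown and 2 wild-type libraries of MHCC97H cells. The deposited values are RPKM per gene name, computed by the authors over annotated exons. The tools named by the submitters' processing notes are featureCounts and Subread 1.5.1, StringTie 1.3.2, edgeR 3.12.1 and Trimmomatic 0.36. The labels describe a stranded kit with molecular identifiers. The aligner, and whether strand or identifiers entered the counts, are not given in the sources used. The coordinates are those of human GRCh38, although the notes name mm9. RPKM times exon length gave whole reads within 0.01 for 100% of values, which set the depth of 11498663 to 19659106 assigned reads. These reads were used for TMM factors (0.972 to 1.03, trimming 30% of log ratios and 5% of levels), for the filter and for limma-voom.

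Values were tested as log2(RPKM divided by the TMM factor + 0.1) with limma (version 3.58.1; R version 4.3.3), with group as the only term and variances moderated along a trend in mean level. Fold changes on this scale are too small for genes near the pseudocount. Genes needed the equivalent of 10 reads in at least 2 libraries and 15 reads in total. Residual degrees of freedom were 2 and prior ones 3.56, so p-values lean on the pooled spread. Alternatives changed the scaling, pseudocount, filter, test, moderation, replicate block and libraries. The members and lists were chosen with earlier results of these data known. Named are the 10 hosts, HNRNPM, tested snoRNAs inside hosts, up to 4 genes per list with the smallest adjusted p, and the 5 genes nearest to GAS5; SNHG4 and ZFAS1, the other hosts called, were named after their values were seen. One further gene that the rule names is not reported here. Older symbols were matched through RefSeq.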

Additional observations from a re-analysis of the deposited data

How the results depend on the processing

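The called members, SNHG6, GAS5, SNHG17 and SNHG1, kept their direction under all 14 alternatives; 2 members were called higher and 2 lower in each, except as follows. With no filter on low values (more genes tested) 0 members were called higher and 1 lower, and total-read scaling left 1 lower. Leaving out 1 library at a time gave 0 to 1 higher and 0 to 2 lower; such fits assume that the lone library varies like the other group. Over all genes, 1066 were higher and 1666 lower with no filter, and 700 to 1534 higher and 1012 to 1691 lower without 1 library. Of all calls 44.5% were higher, against 55.5% with total-read scaling. With no filter 11 coding hosts, 3 other TOP mRNAs, 23 ribosomal protein genes, 4 decay factors, 4 decay targets, 0 snoRNP genes, and 0 higher and 0 lower snoRNAs were called. Without 1 library the counts were 3 to 4 other non-coding hosts, 1 to 27 coding hosts, 1 to 11 other TOP mRNAs, 3 to 66 ribosomal protein genes, 1 to 3 decay factors, 3 to 7 decay targets, 0 to 1 snoRNP genes, and 0 to 1 higher and 1 to 3 lower snoRNAs. SnoRNP calls were 2 with median-of-ratios scaling, 2 with total-read scaling, 5 with a stricter filter, 8 with limma-voom and 3 with the replicate block. Lower snoRNAs were 1 with either of these scalings and 6 with the replicate block. Replicate numbers share only a number (correlation of same-number deviations 0.0628 over 20221 genes); the replicate block gave 2349 higher and 2787 lower genes. Reversed values, none of them called, were SNHG7 at 0.13 less snoRNA reads; SNHG8 at 0.0197, SNHG15 at 0.0464 and SNHG16 at 0.0174 with total-read scaling; and SNHG15 at 0.0081 with median-of-ratios scaling. Leaving out 1 library at a time gave -0.11 to 0.0258 for SNHG8, -0.17 to 0.15 for SNHG15, -0.13 to 0.0353 for SNHG16 and -0.31 to 0.0205 for SNORA16A. The causes were not tested. Low reads limit SNHG15 and the rarer snoRNAs.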
